A study of Mus musculus with 10 samples.

Results

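The genes described are 40 genes of DNA replication. They are among 24981 genes with an RPKM value (reads divided by exon length and by library depth) in each cell type. They were chosen by their symbols and not by a measured value, but with earlier results of these data known. They were sorted into 6 roles: origin licensing (10 genes), helicase activation (4), DNA polymerases (8), clamp and Okazaki fragment enzymes (8), nucleotide supply (5), and chromatin and checkpoint factors (5). The RNA came from natural killer (NK) cells of the spleen and from type 1 innate lymphoid cells (ILC1) of the liver of BALB/C mice that had received vehicle or tofacitinib. Tofacitinib inhibits Janus kinases, which carry the signals of interleukin-2, interleukin-15 and other cytokines. The study asked whether the inhibitor acts in the same way on these related cell types, and here the question is put to the machinery that copies the genome.

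There were 10 libraries. Vehicle NK cells and vehicle ILC1 had 3 libraries each, and NK cells and ILC1 of mice given 30 mg/kg of tofacitinib had 2 libraries each, after oral dosing 2 times per day for 7 days. Splenic NK cells were sorted as NKp46+ CD3- cells, and liver ILC1 as CD3- NKp46+ DX5dim TRAIL+ cells. Each library was made from the pooled cells of several animals, so p-values rest on the spread between pools. In ILC1 that spread entered only through a trend shared by all genes. Libraries had 29199973 to 79258362 alignments. The marker of the ILC1 sort and the transcription factor of NK cells followed the labels. Tnfsf10, which encodes TRAIL, was at 51.5 to 84.9 RPKM in the ILC1 libraries and 4.39 to 5.26 in the NK libraries. Eomes was at 2.44 to 6.29 and 173 to 212. Of the other ILC1 markers read, Itga1, Cxcr6 and Cd200r1 were higher in ILC1, Ncr1 and Il7r overlapped, and Tbx21 was higher in NK cells. The summed RPKM of the 7 ILC1 markers overlapped, at 876 to 1626 in ILC1 and 847 to 1243 in NK libraries. Of the other NK markers read, Ncr1 and Klrk1 overlapped and the rest were higher in NK cells. The ILC1 libraries were sequenced in 3 runs. The first held vehicle replicate 1 only, the second held vehicle replicate 2 and tofacitinib replicate 1, and the third held vehicle replicate 3 and tofacitinib replicate 2. The second run stood apart, with a median RPKM over tested genes of 7.58 and 8.94 against 11.9 to 13.2 in the other ILC1 libraries. Tofacitinib replicate 1 of ILC1 also held neutrophil RNA (8 marker genes, summed RPKM 149.7 against 0.177 to 4.42 in the other ILC1 libraries) and erythroid RNA (7 marker genes, 174.8 against 0.424 to 14.4). Results in ILC1 are therefore given with and without the run as a term, and within each run.

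Before S phase the origin recognition complex, Cdc6 and Cdt1 load the ring of Mcm2 to Mcm7 onto DNA. Cdc45 and the GINS complex then turn the ring into a moving helicase, DNA polymerase alpha with primase starts each strand, and polymerases delta and epsilon extend it behind the clamp PCNA. Resting lymphocytes keep much of this machinery low and raise it on entry into the cell cycle, largely through E2F transcription factors, which bind short GC-rich words near the start of these genes.

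Those words can be seen in the promoters. The RefSeq promoter set (GRCm38.p6, 250 bases before to 50 after the start of transcription) held 34 of the 40 genes; Gins1, Gins2, Mcm4, Pole, Prim2 and Rfc2 had no entry. The words TTTCCCGC, TTTGGCGC or TTTCGCGC, on either strand and allowing matches to overlap, were present for 16 of these 34 genes (47.1%), and for 2.12% of the 27025 genes with a promoter of the same length. They were found for 7 of 9 licensing genes, 4 of 6 polymerase genes, 3 of 5 chromatin and checkpoint genes, 2 of 7 clamp and Okazaki genes and none of the 2 helicase activation and 5 nucleotide supply genes with an entry. The pentamer CCAAT, which NF-Y binds, was present for 52.9% of the replication genes and 41.1% of all genes. A match is only a string of letters in this window and was not tested as a binding site.

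The promoters of Cdca7, Hells, Mcm3, Mcm6 and Rrm2 are printed 5′ to 3′ on the strand of the gene, with the E2F words in capitals, because they stand for genes that differ in their change with tofacitinib below. They lie at chr2:72475969-72476268 (Cdca7, plus strand) and chr19:38930740-38931039 (Hells, plus strand) with 1 word each, chr1:20820263-20820562 (Mcm3, minus strand) with 2, chr1:128359656-128359955 (Mcm6, minus strand) with 3, and chr12:24708004-24708303 (Rrm2, plus strand) with none. In Mcm6 the first capitals hold a pair of overlapping words, one on each strand.
Cdca7: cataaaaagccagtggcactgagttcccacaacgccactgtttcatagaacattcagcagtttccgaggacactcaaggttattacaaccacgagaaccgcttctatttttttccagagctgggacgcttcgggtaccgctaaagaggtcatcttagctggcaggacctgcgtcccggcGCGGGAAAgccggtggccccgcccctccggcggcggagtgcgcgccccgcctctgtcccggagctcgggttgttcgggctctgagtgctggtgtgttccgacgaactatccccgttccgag
Hells: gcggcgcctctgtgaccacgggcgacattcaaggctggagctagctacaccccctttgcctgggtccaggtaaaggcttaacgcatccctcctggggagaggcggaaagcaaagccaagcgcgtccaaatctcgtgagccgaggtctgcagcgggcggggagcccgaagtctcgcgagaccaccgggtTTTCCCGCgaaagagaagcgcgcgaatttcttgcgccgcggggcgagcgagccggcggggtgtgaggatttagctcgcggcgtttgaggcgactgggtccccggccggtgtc
Mcm3: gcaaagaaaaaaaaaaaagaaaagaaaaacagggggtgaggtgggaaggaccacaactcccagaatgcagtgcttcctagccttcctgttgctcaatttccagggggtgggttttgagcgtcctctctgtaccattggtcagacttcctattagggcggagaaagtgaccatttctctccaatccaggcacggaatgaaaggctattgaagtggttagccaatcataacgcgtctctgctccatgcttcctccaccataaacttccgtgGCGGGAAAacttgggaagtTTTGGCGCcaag
Mcm6: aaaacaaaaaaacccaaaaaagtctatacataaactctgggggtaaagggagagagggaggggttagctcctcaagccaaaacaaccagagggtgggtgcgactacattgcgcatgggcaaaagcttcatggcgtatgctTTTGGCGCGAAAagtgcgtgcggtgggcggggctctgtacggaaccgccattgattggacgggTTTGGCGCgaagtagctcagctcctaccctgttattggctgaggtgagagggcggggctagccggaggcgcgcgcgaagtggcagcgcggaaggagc
Rrm2: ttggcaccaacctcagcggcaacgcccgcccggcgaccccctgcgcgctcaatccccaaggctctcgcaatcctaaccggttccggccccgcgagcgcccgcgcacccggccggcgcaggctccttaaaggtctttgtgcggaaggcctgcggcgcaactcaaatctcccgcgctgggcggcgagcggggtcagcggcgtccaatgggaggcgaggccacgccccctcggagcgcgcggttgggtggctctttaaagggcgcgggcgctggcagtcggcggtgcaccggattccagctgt
Counted from the start of transcription, the word lies at position -71 in Cdca7, at -62 in Hells, at 20 and 39 in Mcm3, and at -110, -106 and -47 in Mcm6. The genes with the strongest responses were found both with a word (Cdca7, Uhrf1, Cdc6) and without an exact match to one (Rrm2, Chek1, Mcm10). The Chek1 window ends in ttttggcgggaa, which is close to a word but was not counted. The median log2 change in ILC1 was -0.72 for the 16 genes with a word and -0.37 for the 18 without, and in NK cells -0.06 and -0.05, all as a description.

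In vehicle-treated mice the replication genes spanned a wide range of levels, as the plot of RPKM by library shows. PCNA, the sliding clamp, was the most abundant, with a mean Pcna of 151.7 ± 52 RPKM (SD, n = 3) in ILC1 and 110.2 ± 9.5 in NK cells. Slbp, which binds the stem-loop of histone messages, and Rfc2, a subunit of the clamp loader, followed with 52.8 and 34.9 RPKM in ILC1 and 53.4 and 52.1 in NK cells. The Mcm2 to Mcm7 genes had vehicle means of 17.9 to 29.2 RPKM in ILC1 and 13.3 to 23.0 in NK cells. At the low end were Orc1, Cdc6 and Mcm10, with vehicle means of 0.854, 1.55 and 1.51 RPKM in ILC1 and 0.442, 0.193 and 0.233 in NK cells. The ratio of vehicle means, ILC1 over NK cells, lay between 0.8 and its inverse for 15 of the 40 genes, 8 of them among the 16 polymerase, clamp and Okazaki genes.

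**Figure D1:**
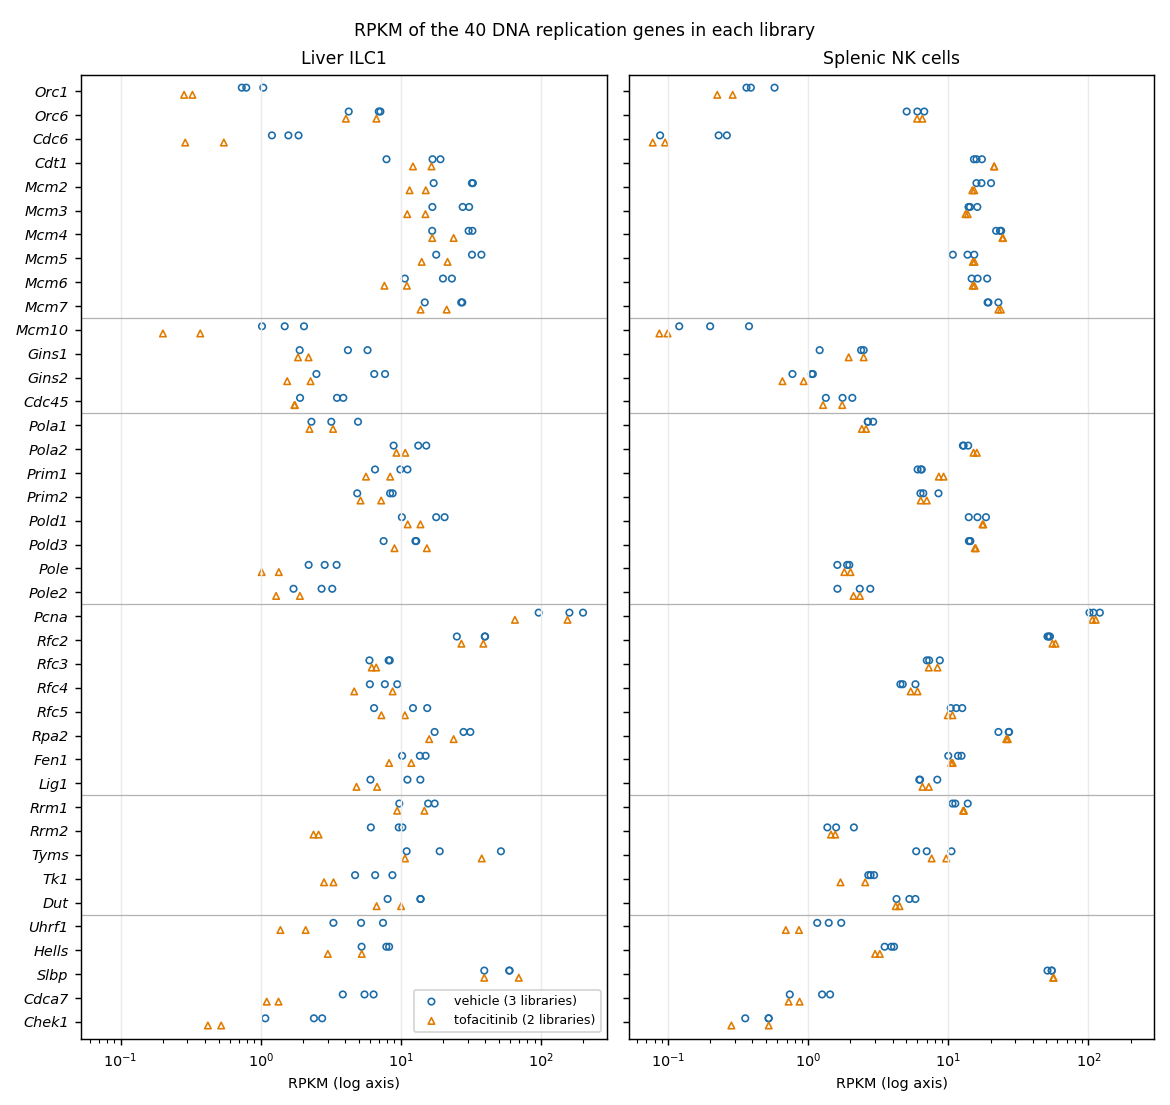
RPKM of each of the 40 replication genes (log axis) in every library, with ILC1 on the left and NK cells on the right; circles are vehicle libraries, triangles tofacitinib libraries, and lines separate the 6 roles. Triangles lie to the left of every circle for 13 genes in ILC1 and 8 in NK cells, and to the right of every circle for none in ILC1 and 8 in NK cells. Of all genes tested, 3.43% in ILC1 and 23.9% in NK cells lay to the left, and 2.07% and 20.2% to the right. The counts for the 40 genes also hold genes too low for testing.

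The genes that set ILC1 apart at baseline were a smaller group. The vehicle mean in ILC1 was over 3 times that in NK cells for Cdc6 (8.0 times), Mcm10 (6.51), Gins2 (5.72), Rrm2 (5.13), Cdca7 (4.59), Chek1 (4.45), Uhrf1 (3.73) and Tyms (3.49). Cdc6 and Mcm10 were under the level for testing (a group mean log2(RPKM + 0.1) over 1) in both cell types. Of the 37 genes above it in at least 1 cell type, 6 had such a ratio, where 3.51% of the 9857 such genes did. Among the 31 genes above it in both, Tyms alone had such a ratio, where 1.51% of the 8981 such genes did. Tyms had 18.9, 51.8 and 11.0 RPKM in vehicle ILC1 and 7.01, 5.90 and 10.5 in vehicle NK cells. Its ratio therefore rests largely on vehicle replicate 2 of ILC1. The median ratio over those 31 was 1.15, against 0.850 for the 8981. All vehicle ILC1 libraries were above all vehicle NK libraries for 17 of the 40 genes and below them for 2 (Pold3 and Rfc2). On the basis of at least 1 cell type these were 14 and 2 of 37, where 7.83% and 31.6% of all such genes were above and below. After tofacitinib, 9 of the 17 still had both ILC1 libraries above both NK libraries, namely Cdc6, Mcm10, Gins2, Rrm2, Tyms, Tk1, Dut, Uhrf1 and Cdca7. Of the 14, these were 7, while 85.9% of all genes above in vehicle were also above after tofacitinib. The NK and ILC1 values were normalized in separate tables, so these levels were set side by side without a test. T cell marker genes (6 genes) summed to 130 to 259 RPKM in ILC1 and 15.7 to 20.5 in NK libraries, mostly through Cd3g. The part of T cell RNA in these levels was not tested.

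The effect of tofacitinib within each cell type was tested with limma on log2(RPKM + 0.1), two-sided, with Benjamini-Hochberg adjustment over all genes tested; changes are tofacitinib against vehicle on that scale, which understates the change of low genes. Genes entered the test when either group had a mean log2(RPKM + 0.1) over 1. In ILC1, and in the joint fit of both cell types below, limma took each gene's variance wholly from a trend shared by all genes. Those standard errors and p-values do not measure a gene's own spread between pools. In NK cells the gene's own spread was used together with the trend. A looser threshold, here called the study threshold because the study's supplementary gene lists were drawn with it, asks for an unadjusted p below 0.05 together with a fold under 0.6 or over the inverse of 0.6. The study's plots used a stricter fold. In ILC1, 37 of the 40 genes were tested, and Orc1, Cdc6 and Mcm10 were too low.

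In ILC1 of tofacitinib-treated mice, replication genes were lower. The 7 lowest changes were those of Mcm10, Cdca7, Chek1, Rrm2, Cdc6, Uhrf1 and Gins2, which all had a vehicle level over 3 times that of NK cells; the vehicle ILC1 libraries enter both values. Cdca7, Chek1 and Rrm2 fell at adjusted p under 0.05 (limma), which is 3 genes of 37, where 0.278% of the 9366 tested genes fell; none rose, where 0.192% of all genes did. At the study threshold 7 genes were lower (the same 3 with Uhrf1, Gins2, Pole and Tk1), where 1.41% of all genes were, and none was higher, where 0.811% of all genes were. The change was below 0 for 34 of 37 genes, against 48.2% of all genes tested, with a median of -0.38 against 0.01. Of the 37 genes, 7 had passed the level needed for testing only through the vehicle group (Gins2, Cdc45, Pole, Pole2, Uhrf1, Cdca7 and Chek1) and could hardly differ otherwise. Among the 30 that passed it in both groups, 27 had a change below 0 (48.2% of all such genes), with a median of -0.35. Of these 30, Rrm2 alone fell at adjusted p under 0.05 (limma), where 0.122% of the 8980 such genes fell, and Rrm2 and Tk1 were lower at the study threshold, where 0.857% were. Over all 40 genes, tested or not, 37 had a change below 0 and the median was -0.51. In bulk RNA, fewer cells in S phase and less of these messages per cell cannot be told apart.

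**Figure D2:**
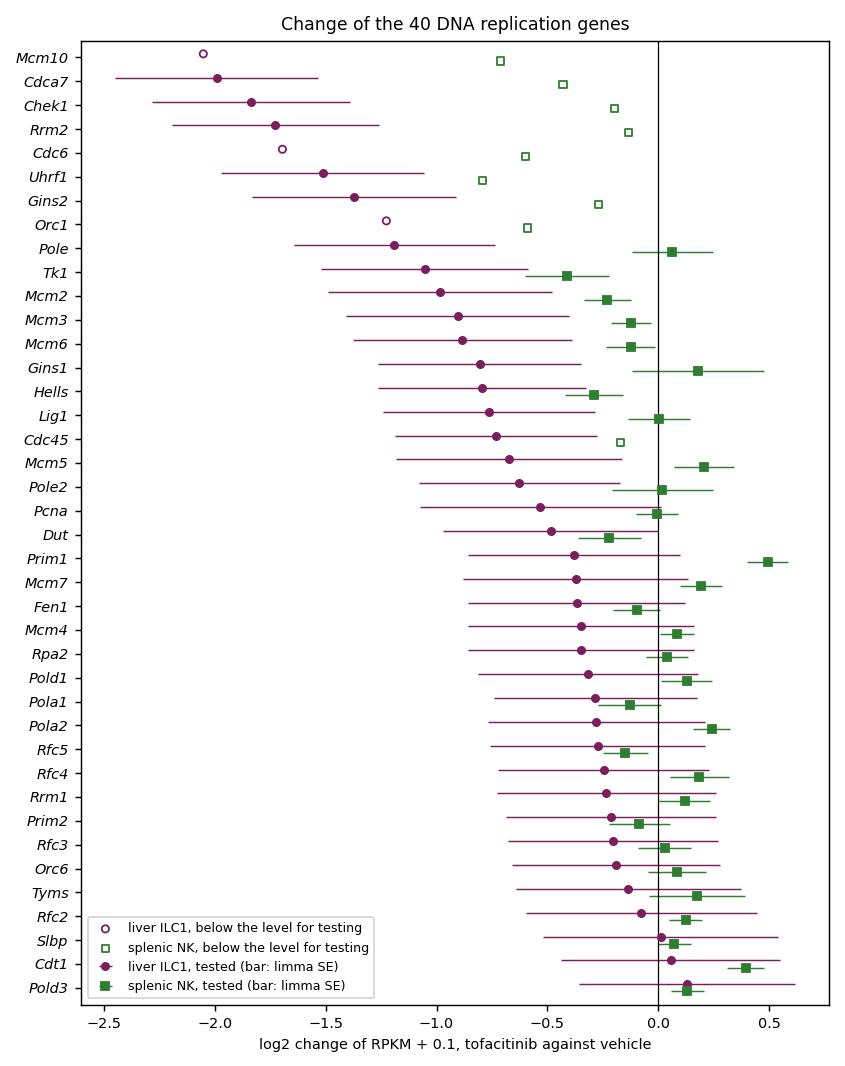
Log2 change of RPKM + 0.1 with tofacitinib against vehicle for the 40 genes, ordered by the change in ILC1; circles are ILC1, squares NK cells, bars the standard error of limma, and open symbols genes below the level for testing, which have no error. ILC1 values run from -2.05 for Mcm10 to 0.13 for Pold3, while the tested NK values stay between -0.41 and 0.49.

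The chromatin and checkpoint group had the lowest median change (-1.51). Cdca7 (mm10 chromosome 2, 72476159 to 72486893), which recruits the remodeler HELLS to chromatin, had 5.50, 3.85 and 6.39 RPKM in the vehicle ILC1 libraries and 1.10 and 1.34 after tofacitinib. Both treated libraries were far under the lowest vehicle library, with a log2 change of -1.99 (SE 0.46, adjusted p = 0.0064, limma). Reads of its paralog Cdca7l could be shared with it. Chek1 (chromosome 9, 36708482 to 36727065), the kinase that restrains origin firing and mitosis when forks stall, had 2.74, 1.08 and 2.40 RPKM with vehicle and 0.420 and 0.522 with tofacitinib. Its log2 change was -1.84 (SE 0.45, adjusted p = 0.014, limma), and the groups did not overlap although vehicle replicate 2 was well below its peers.

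Uhrf1 (chromosome 17, 56303321 to 56323486), which brings the maintenance DNA methyltransferase to hemimethylated DNA behind the fork, had 7.46, 3.30 and 5.20 RPKM with vehicle and 2.09 and 1.38 with tofacitinib. The treated values were again the lowest, with a log2 change of -1.51 that passed the study threshold but not the adjusted one (adjusted p = 0.137, limma). Hells, the remodeler itself (chromosome 19, 38930915 to 38971051), had 7.87, 5.24 and 8.24 RPKM and then 3.01 and 5.26, so that the second treated library overlapped vehicle replicate 2. Slbp did not share this pattern. It had 59.3, 39.4 and 59.7 RPKM with vehicle and 39.4 and 69.4 with tofacitinib, a log2 change of 0.01 (SE 0.53).

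Among the nucleotide supply genes, Rrm2 and Tk1 separated the groups. Rrm2 (chromosome 12, 24708241 to 24714146), the subunit of ribonucleotide reductase made in S phase, had 10.2, 6.10 and 9.65 RPKM with vehicle and 2.38 and 2.59 with tofacitinib. The log2 change was -1.73 (SE 0.47, adjusted p = 0.0465, limma), with a wide gap between the groups. Rrm1, the subunit present through the cycle, had a log2 change of -0.23 (SE 0.49) and overlapping groups. Tk1 (chromosome 11, 117815526 to 117826092), thymidine kinase of S phase, had 8.70, 4.71 and 6.55 RPKM and then 2.83 and 3.30, a log2 change of -1.05 (adjusted p = 1.0, limma) with no overlap. Its exons overlap those of Afmid on the other strand. Tyms, thymidylate synthase, followed the run and not the treatment, with 37.8 to 51.8 RPKM in the second run and 10.7 to 18.9 in the other runs. A processed pseudogene, Tyms-ps, could share its reads. Dut, which removes dUTP, had a log2 change of -0.49.

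The helicase activation genes were low, with lower values after tofacitinib. Gins2 (chromosome 8, 120578633 to 120589304), a subunit of GINS, had 7.71, 2.50 and 6.46 RPKM with vehicle and 1.54 and 2.27 with tofacitinib, a log2 change of -1.37 (adjusted p = 0.32, limma). The groups were separated only narrowly, by vehicle replicate 2. Mcm10, which binds the helicase as forks start, had 2.04, 1.02 and 1.48 RPKM and then 0.370 and 0.200, the largest change of all 40 genes at -2.05 but below the level for testing. Cdc45 and Gins1 had changes of -0.73 and -0.81. Exons of Gins2 and Cdc45 overlap genes on the other strand (Gse1 and Ufd1), and the sources used here do not say whether strand was counted.

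The licensing genes ranged from -1.70 for Cdc6 to 0.06 for Cdt1. Orc1, the largest subunit of the origin recognition complex, had 0.732, 0.788 and 1.04 RPKM with vehicle and 0.325 and 0.284 with tofacitinib. Cdc6 had 1.86, 1.2 and 1.57 RPKM and then 0.545 and 0.289. Both genes separated the groups but were too low to be tested, with changes of -1.23 and -1.70. Cdt1, by contrast, had 19.2, 7.89 and 16.8 RPKM with vehicle and 12.2 and 16.5 with tofacitinib, a change of 0.06 (SE 0.49). Orc6, the smallest subunit of the origin complex, had 6.95, 4.24 and 7.14 RPKM and then 4.05 and 6.69, a change of -0.19 (SE 0.47) with overlapping groups. The 6 ring genes all had a change below 0, from -0.99 for Mcm2 to -0.35 for Mcm4, and for Mcm2 and Mcm3 both treated libraries were below every vehicle library. Mcm2 (chromosome 6, 88883474 to 88898780) had 32.6, 17.1 and 32.1 RPKM and then 11.5 and 15.1, and Mcm5, the most abundant of them in vehicle ILC1, 37.6, 17.9 and 32.2 and then 14.1 and 21.5. None of the ring genes passed either threshold in the fit of RPKM as deposited without the run. With libraries scaled to the same median, Mcm2, Mcm3 and Mcm6 fell at adjusted p = 0.014, 0.022 and 0.040 (limma), and with quantile normalization at 0.014, 0.020 and 0.036. Among all genes called, the part that was lower also rose with both scalings, as given below.

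Polymerases and clamp enzymes changed least. Pole (chromosome 5, 110286306 to 110337474), the catalytic subunit of polymerase epsilon, was the exception, with 3.48, 2.20 and 2.86 RPKM in vehicle and 1.02 and 1.35 in treated ILC1. The groups did not overlap and the log2 change was -1.19 (adjusted p = 0.703, limma). The other 7 polymerase genes ranged from -0.63 (Pole2) to 0.13 (Pold3, a subunit of polymerase delta), and all overlapped between the groups. The 8 clamp and Okazaki genes ranged from -0.76 (Lig1, the ligase that seals Okazaki fragments) to -0.08 (Rfc2), with a median of -0.31 and none past a threshold. Pcna had 159, 96.2 and 199 RPKM and then 65.1 and 155, so that its treated value in 1 run was above the vehicle value in the other; the pseudogenes Pcna-ps1 and Pcna-ps2 could share its reads.

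**Figure D3:**
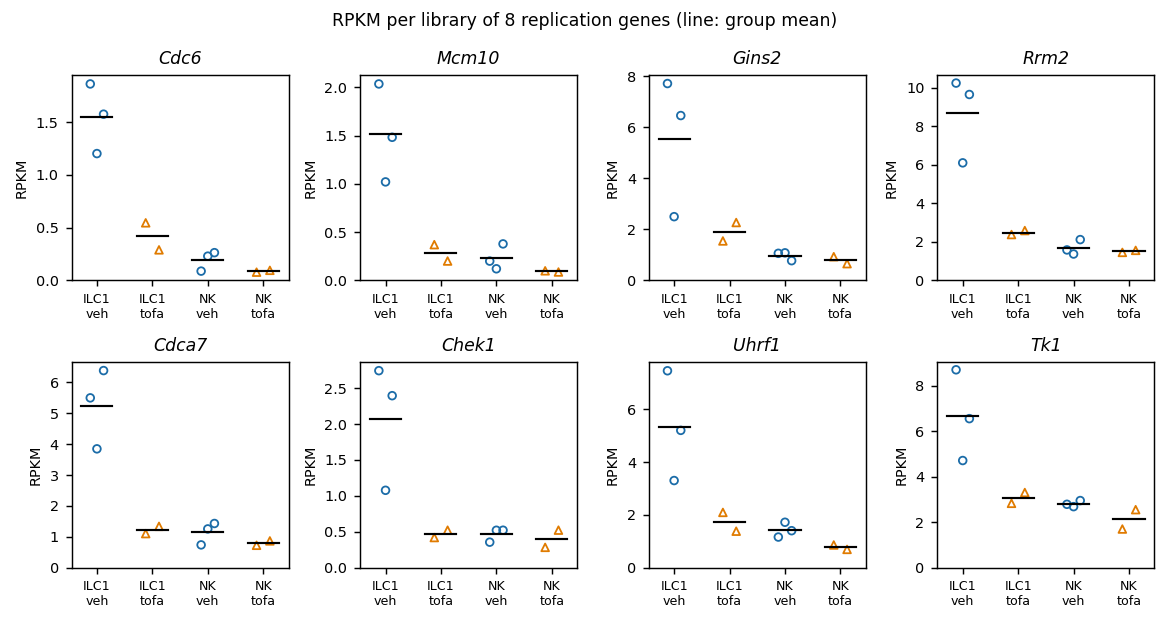
RPKM of 8 replication genes in each library of the 4 groups (ILC1 and NK cells, vehicle and tofacitinib), with a line at the group mean. Vehicle ILC1 libraries are the highest for all 8 genes, and the treated ILC1 means are above the vehicle NK means for all 8. The treated ILC1 and vehicle NK means are 0.471 and 0.466 for Chek1, 1.22 and 1.14 for Cdca7, and 2.48 and 1.69 for Rrm2. They are 1.91 and 0.970 for Gins2 and 0.417 and 0.193 for Cdc6. The cell types were normalized separately.

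The position of the treated libraries relative to the vehicle range was also counted by role. Both treated ILC1 libraries were below all 3 vehicle libraries for 10 of the 37 tested genes and for 13 of all 40, and above them for none; 3.43% of all tested genes were below and 2.07% above. Among the 30 genes that passed the level in both groups, 4 were below (Mcm2, Mcm3, Rrm2 and Tk1), where 2.63% of such genes were. The 13 were 4 of 10 licensing genes, 3 of 4 helicase activation genes, 1 of 8 polymerase genes, none of 8 clamp and Okazaki genes, 2 of 5 nucleotide supply genes and 3 of 5 chromatin and checkpoint genes. Those counted for helicase activation, polymerases, and chromatin and checkpoint were untested or had passed the level only through the vehicle group. These counts therefore cannot tell the roles apart.

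The comparison within runs removes the level of a run. In ILC1, libraries of the same run deviated together from the means of their groups, so the run was also fitted as a block. Over 9366 genes, which are not independent replicates, r was 0.63 in the second run and 0.78 in the third. The deviations of the treated libraries from their mean are exact opposites, so these r values are not independent of each other. With the run in the fit, 10 replication genes fell at adjusted p under 0.05 (limma), where 2.34% of all tested genes fell, and none rose, where 1.99% of all genes did. They were Cdca7 (-1.94, adjusted p = 3.1e-12), Rrm2 (-1.59, 6.3e-10), Uhrf1 (-1.24, 4.3e-05), Chek1 (-1.59, 8.1e-05), Gins2 (-1.06, 0.00077), Pole (-1.04, 0.0068), Tk1 (-0.84, 0.010), Mcm2 (-0.83, 0.011), Mcm3 (-0.74, 0.033) and Hells (-0.71, 0.042). At the study threshold 8 were lower, where 2.12% of all genes were. Of the 30 genes above the level in both groups, Rrm2, Tk1, Mcm2, Mcm3 and Hells fell at adjusted p under 0.05 (5 genes, where 1.82% of such genes fell), and 3 were lower at the study threshold (1.49%). This fit leaves 1 residual degree of freedom and rests on the variance shared across genes, and the lone library of the first run has no weight in it.

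Both shared runs showed the lower values separately. In the second run the median difference of tofacitinib minus vehicle was -0.26 for the 37 genes and 0.22 for all tested genes, and in the third run it was -0.46 and -0.03. The difference was below 0 in both runs for 27 of the 37 genes (19.4% of all tested genes) and for 30 of all 40, and only Pold3 was above 0 in both. It was below -0.5 in both runs for 10 of the 37 genes, where 2.45% of all genes were, and for 13 of all 40. Of the 30 genes above the level in both groups, 20 were lower in both runs (18.7% of such genes) and 5 by over 0.5 (1.79%). The difference was more negative in the third run for 31 of the 37 genes, where 80.8% of all tested genes were more negative there. Relative to the median of all genes, the median of the replication genes was 0.48 lower in the second run and 0.43 lower in the third. The part of the neutrophil and erythroid RNA of the second run in these values was not tested.

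**Figure D4:**
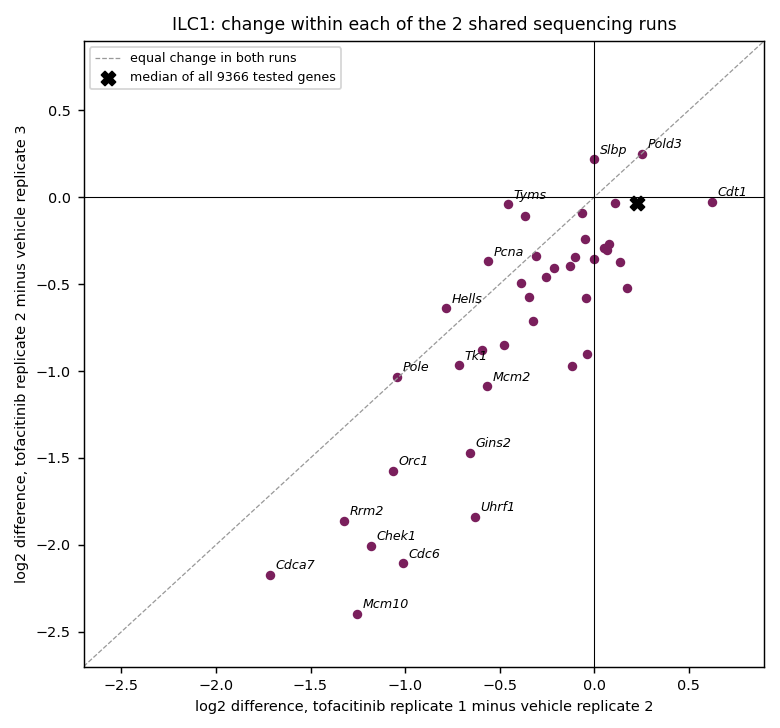
Log2 difference of RPKM + 0.1 between tofacitinib and vehicle ILC1 in the 2 shared sequencing runs, one point per replication gene, with the dashed line at equal change and a cross at the median of the 9366 tested genes (0.22 and -0.03). Cdca7 (-1.71 and -2.17), Rrm2 (-1.32 and -1.86) and Mcm10 (-1.25 and -2.40) lie low in both runs, and Pold3 lies above 0 in both.

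Single libraries decided how many of these calls passed in the fit without the run. Without vehicle replicate 1, vehicle replicate 3, tofacitinib replicate 1 or tofacitinib replicate 2 no replication gene fell at adjusted p under 0.05 (limma), and without vehicle replicate 2 there were 6. At the study threshold the counts were 3, 5, 4, 5 and 17 in the same order. Leaving out the whole second run, a choice made after seeing the data, left 1 treated library. The log2 changes of Cdca7, Chek1, Rrm2, Uhrf1 and Gins2 were then -2.07, -2.10, -1.90, -2.10 and -1.60. The shares of all genes called in these fits are not given here. The counts above therefore show only how far the calls depend on single libraries. The change was below 0 under every setting that tested them for 26 of the 37 genes. Among the 26, Gins2, Cdc45, Pole, Pole2, Uhrf1, Cdca7 and Chek1 had passed the level in the main fit only through the vehicle group. The settings reuse the same libraries, and the share of all genes that kept a change below 0 was not computed.

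In splenic NK cells the tested genes did not move in a common direction. Of the 40 genes 31 were tested, and Orc1, Cdc6, Mcm10, Gins2, Cdc45, Rrm2, Uhrf1, Cdca7 and Chek1 were too low. None fell at adjusted p under 0.05 (limma), where 3.02% of the 9472 tested genes fell, and at an unadjusted p under 0.05 none was lower and 3 were higher, where 13.1% and 10.2% of all genes were. Prim1 and Cdt1 rose, which is 2 of 31, where 1.79% of all genes rose. None passed the study threshold, where 1.1% of all genes were lower and 0.56% higher. The change was below 0 for 11 of 31 genes (52.4% of all genes), with a median of 0.06 against -0.01. Over all 40 genes, tested or not, 20 had a change below 0 and the median was -0.002. The 9 untested genes were all below 0, from -0.79 for Uhrf1 to -0.14 for Rrm2. Across the 31 tested genes the NK and ILC1 changes had a Pearson r of 0.49, over genes that are not independent replicates. Both treated libraries were below the vehicle range for 5 of the tested genes and above it for 8, where 23.9% and 20.2% of all genes were, so neither share stood far from that of all genes.

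Prim1 (chromosome 10, 128015168 to 128030037), the catalytic subunit of primase, had 6.04, 6.46 and 6.37 RPKM in vehicle NK cells and 8.55 and 9.24 after tofacitinib. Cdt1 (chromosome 8, 122568015 to 122573554) had 15.9, 17.4 and 15.2 RPKM and then 21.2 in both treated libraries. For both genes the treated libraries were above the whole vehicle range. The log2 changes between group means were 0.49 (SE 0.09, adjusted p = 0.025) and 0.39 (SE 0.08, adjusted p = 0.037, limma). For Prim1 the call was lost without vehicle replicate 1, tofacitinib replicate 1 or tofacitinib replicate 2, and for Cdt1 also without vehicle replicate 3, while the changes stayed between 0.44 and 0.55 and between 0.35 and 0.45.

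Other NK changes were small and did not pass. Tk1 had 2.79, 2.68 and 2.95 RPKM with vehicle and 1.70 and 2.55 with tofacitinib, a log2 change of -0.41 (adjusted p = 0.23, limma). Hells had 3.51, 3.92 and 4.10 RPKM and then 3.24 and 3.0 (-0.29), and Mcm2 15.9, 20.2 and 17.2 and then 14.8 and 15.3 (-0.23). All 3 genes had both treated values under every vehicle value, as did 23.9% of all genes tested in NK cells. All 3 were lower in ILC1, as were 34 of the 37 replication genes tested there. Pola2, the accessory subunit of polymerase alpha, went the other way, with 12.7, 12.9 and 13.9 RPKM and then 16 and 15.1, a change of 0.24 (adjusted p = 0.128).

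The genes that led in ILC1 were near the floor of NK cells. Rrm2 had 1.58, 1.37 and 2.12 RPKM in vehicle NK cells and 1.45 and 1.56 after tofacitinib, so that the groups overlapped. Chek1 had 0.355, 0.521 and 0.522 RPKM and then 0.283 and 0.523, and Cdca7 0.738, 1.26 and 1.43 and then 0.725 and 0.868. Uhrf1, Orc1 and Mcm10 did separate the groups, and Uhrf1 had 1.16, 1.72 and 1.40 RPKM with vehicle and 0.859 and 0.692 with tofacitinib. These low genes were not tested. B cell marker RNA was present in all NK libraries (5 genes, summed RPKM 61.8 to 94.4 with vehicle and 77.2 to 100.4 with tofacitinib). Erythroid marker RNA (7 genes) summed to 146, 51.9 and 33.8 RPKM with vehicle and 24.0 and 36.0 with tofacitinib. The part of either in the NK levels was not tested.

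Whether the response differed between the cell types was tested in a joint fit of all 10 libraries, as the change in ILC1 minus the change in NK cells, for the 31 genes tested in both. No gene passed an adjusted p of 0.05 (limma, smallest value 1.0), where 0.0445% of the 8981 genes were called lower, and 2 genes had an unadjusted p under 0.05. These were Pole (-1.25, SE 0.45) and Gins1 (-0.98, SE 0.45), both also past the study threshold, where 0.423% of all genes were lower and 0.412% higher. In Pole the NK libraries stood at 1.96, 1.89 and 1.61 RPKM with vehicle and 2.0 and 1.81 with tofacitinib, against the separated groups in ILC1. Pole passed the level for testing only through the vehicle group in ILC1 and only through the tofacitinib group in NK cells, which favours a negative difference. Gins1 had 1.21, 2.49 and 2.38 RPKM and then 2.49 and 1.94 in NK cells, and 5.78, 1.90 and 4.19 and then 1.84 and 2.19 in ILC1, so that vehicle replicate 2 of ILC1 fell among its treated libraries. Prim1, which rose in NK cells, had a difference of -0.87 (SE 0.46).

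The difference was below 0 for all 31 genes, from -1.25 for Pole to nearly 0 for Pold3, where 43.8% of all genes were below 0, and the median was -0.44 against 0.03. Over the alternatives 20 of the 31 genes had a difference below 0 in every fit and 11 changed sign in at least 1. These fits reuse the same libraries, and the share of all genes below 0 in every fit was not computed. The errors of the difference, with a median SE of 0.47, were set by the ILC1 libraries, whose median SE for replication genes was 0.48 against 0.11 in NK cells. The 9 genes too low for testing in NK cells include the 5 with the largest tested changes in ILC1, so the difference could not be tested where the ILC1 change was greatest.

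A further 50 replication genes, listed by function, were read beside the 40. Of these, 42 were tested in each cell type and none passed an adjusted p of 0.05 (limma) in either. In ILC1 the change was below 0 for 32 of 42, where 48.2% of all genes were, with a median of -0.14, and 2 were lower at the study threshold, where 1.41% of all genes were. With the run in the fit the change was below 0 for 22 of 42, where 35.4% of all genes were, with a median of -0.03 against 0.096. The median difference was 0.03 in the second run and -0.15 in the third, against 0.22 and -0.03 for all tested genes. Chaf1a, a subunit of the chromatin assembly factor behind the fork, had 5.79, 3.22 and 4.71 RPKM with vehicle and 1.96 and 2.28 with tofacitinib (-1.04). Ung, which removes uracil from DNA, had 7.40, 5.07 and 6.84 RPKM and then 2.64 and 3.61 (-1.02). Both separated the groups, and both fell with the run in the fit (adjusted p = 0.016 and 0.0039), as did Tipin of the fork protection complex (-0.76, adjusted p = 0.020). In NK cells the median was 0.00, with 3 genes lower and 4 higher at an unadjusted p under 0.05 (13.1% and 10.2% of all genes), and the largest rise, not past adjustment, was in Cdc7, the kinase that fires origins (0.63, adjusted p = 0.101).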

How the data were processed

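RNA of 10 libraries was analysed. Base calling used CASAVA 1.8.2 per the submitters' processing notes, and the authors aligned the single-end reads to mm10 (TopHat2 2.1.1) and derived RPKM with Partek; these RPKM values, as deposited in separate NK and ILC1 tables, were used. Without read counts, the error of a value is known only from replicate libraries. The authors' deposited group means of log2 RPKM, fold ratios and p-values with q-values hold their own comparisons and were not used.

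Within each cell type log2(RPKM + 0.1) was fitted with limma 3.58.1 (R 4.3.3, trend), two-sided, leaving 9472 genes in NK cells and 9366 in ILC1 after removal of names starting Mir or Snor; limma replaces the study's analysis of variance. Code was tested on simulated data. Values in every library are given for genes past a threshold and the 6 largest changes per cell type; others were summarised. Members and lists were chosen with earlier results of these data known. ILC1 runs and NK letters come from the sample sheets. In ILC1 libraries of a run deviated together (r = 0.63 and 0.78, not independent of each other). Positions are mm10 (GENCODE), promoters RefSeq. Offset, filter, scaling, variance, block and left-out libraries were varied. The mice were BALB/C, and mm10 is a C57BL/6 genome.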

Additional observations from a re-analysis of the deposited data

How the results depend on the processing

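The 3 replication genes that fell in ILC1 at adjusted p under 0.05 became 0 without a filter on low values, with each gene's own variance and with a block by the label's replicate number, 1 with the filter on the mean over all libraries, 9 with libraries scaled to the same median and 7 with quantile normalization. Leaving out 1 library gave 0 to 6. The replicate block by run gave 10, and, chosen after seeing the data, leaving out the second run gave 11 and the run block with scaling to the same median 15. The 7 genes lower at the study threshold became 11 without a filter, 14 with scaling to the same median, 13 with quantile normalization, 4 with own variance and 2 with the block by label number, 13 and 11 in the last 2 fits just named, and 3 to 17 on leaving out 1 library. Calls among all genes went from 59.1% lower to 81.6% with scaling to the same median and 77% with quantile normalization. For most of these settings the share of all genes called is not given. The counts therefore show only how far the calls depend on the setting. The median of all genes in ILC1 moved to 0.17 with the block by number, and to between -0.26 and 0.29 on leaving out 1 library, while that of the replication genes ran from -0.69 to -0.18.

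In NK cells the 2 genes that rose became 0 without a filter and with own variance, 1 without the trend, 4 with the block by label number, and 0 to 3 on leaving out 1 library. One gene, against 0, was lower at the study threshold without a filter. The 2 genes with a difference of response at the study threshold became 5 without a filter, 1 with the mean filter, 7 with scaling, 8 with quantile normalization, 1 with own variance, 0 with the block by number, and 0 to 14 on leaving out 1 library. No replication gene was called in the difference by adjusted p in any fit. The NK pairing by number (r of deviations 0.017 and 0.14) or by letter (-0.14 and -0.16) shares only a name, and the block by letter kept both calls. The cause of these moves was not tested.

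The ILC1 spread limits the report: the median SE of replication genes was 0.48 against 0.11 in NK cells. Leaving out a treated library leaves 1, assumed to vary like the vehicle group. Depth per gene is unknown, and 9 genes in NK cells and 3 in ILC1 were too low for testing.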

Other observations

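Genes that time the cell cycle, which are no part of the replication machinery, were read beside it. Of 19 such genes, 14 in ILC1 and 9 in NK cells had both tofacitinib libraries below every vehicle library, but most were low. Of the 11 tested in ILC1 this held for 6, where 3.43% of tested genes did, and of the 8 tested in NK cells for 3 (Mki67, Top2a and E2f2), where 23.9% did. In ILC1, 4 of the 6 (Ccnb2, Ccna2, E2f1 and E2f3) had passed the level for testing only through the vehicle group. Mki67, a marker of cycling cells, stood at 2.60, 1.73 and 2.69 RPKM in vehicle NK cells, and tofacitinib brought it to 0.942 and 0.976. That log2 change was -1.18 (adjusted p = 0.029, limma), and Mki67 too had passed through the vehicle group only. The call was lost on leaving out any NK library other than vehicle replicate 2 (adjusted p 0.066 to 0.233). In ILC1 Mki67 had a change of -1.51 (adjusted p = 0.148; 8.2e-08 with the run as a block). E2f1, the activator of replication genes, had 7.47, 5.68 and 5.58 RPKM in vehicle ILC1 and 2.47 and 1.08 after tofacitinib, a log2 change of -1.85 (adjusted p = 0.017, limma; 1.9e-10 with the run as a block). Ccnb2, a cyclin of mitosis, had 2.79, 2.77 and 2.55 RPKM and then 0.751 and 0.444 (-2.04, adjusted p = 0.0031; 2.3e-09 with the run as a block). Both calls were lost without any 1 ILC1 library other than vehicle replicate 2, with adjusted p from 0.101 to 1.0, and with scaling to the same median (0.097 for E2f1 and 0.059 for Ccnb2). E2f3 had the same order in both cell types, at 2.81, 1.97 and 3.26 RPKM and then 1.04 and 1.18 in ILC1, and at 1.22, 1.03 and 1.09 and then 0.582 and 0.576 in NK cells.

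E2f2 stood higher in NK cells than in ILC1. It had 8.44, 9.41 and 9.50 RPKM in vehicle NK cells and 6.80 and 6.94 after tofacitinib, a log2 change of -0.40 (adjusted p = 0.049, limma), while vehicle ILC1 had 2.02, 1.08 and 1.64. The call was lost on leaving out any library other than vehicle replicate 2 (adjusted p 0.067 to 0.383). E2f4, the family member that represses in resting cells, was at 40.6 to 46.9 RPKM in all NK libraries and 24.1 to 41.6 in all ILC1 libraries, and the pocket proteins Rb1, Rbl1 and Rbl2 had changes between -0.06 and 0.15 in both cell types. E2f4, Rb1, Rbl1 and Rbl2 passed no test.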
